A study of Mus musculus with 6 samples.

Results

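The 56 genes described here encode the machinery of S phase, the part of the cell cycle in which DNA is copied. They were taken by name from a table of 18122 genes, with the condition that their mean over the libraries was at least 1 FPKM (a fragment count scaled to gene length and to sequencing depth). All 56 met it, and they are among the 9691 genes tested under the same condition. Following their roles, 19 were placed in licensing and firing of origins, 24 at the replication fork, 5 in nucleotide supply and 8 in checkpoint and repair.

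RNA was sequenced in bulk from mouse CD8+ T cells of wild-type (WT) and Dusp2-/- mice. Dusp2 encodes a phosphatase of MAP kinases. Lymph node cells of both genotypes were kept for 18 h on anti-CD3 antibody (plates coated at 1 µg/mL) with the costimulus anti-CD28 (1 µg/mL) and the cytokines IL-4 (20 ng/mL) and IFN-α (50 ng/mL), a culture meant to give virtual memory T cells. They were then sorted by surface CD44, an adhesion receptor that marks activated and memory T cells, into a CD44hi and a CD44lo fraction. Every group shared this stimulation, and no unstimulated group was analysed here. The CD44hi fraction had 2 libraries of each genotype and the CD44lo fraction had 1 of each, 6 in all. The treatment text of the labels names Cd4-Cre Rpa1fl/fl mice, in which Rpa1 would be deleted in T cells, where the titles name Dusp2-/-. The labels do not say whether replicates came from separate mice or cultures, so every p-value measures only the spread between these libraries, which may be technical.

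Replication begins when the origin recognition complex, Cdc6 and Cdt1 load the MCM2-7 helicase onto DNA in G1, a step called licensing. In S phase the kinase Cdc7 with its subunit Dbf4 lets Cdc45 and GINS join the helicase, and polymerases, the PCNA clamp, the RPA single-strand binding complex and the DNA ligase Lig1 copy the DNA at the fork. Ribonucleotide reductase, thymidylate synthase and thymidine kinase supply the nucleotides, and the checkpoint proteins slow and protect forks under stress. Many of these genes are known targets of E2F transcription factors, and T cells induce them as they leave quiescence after stimulation through the antigen receptor.

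The promoters of the genes were searched for this link. Windows from 250 bases before to 50 bases after an annotated start (300 bases, RefSeq, build GRCm38.p6) were at hand for 45 of the 56 genes, in 53 windows. The 11 genes with no entry were Gins1, Gins2, Gins4, Mcm4, Gmnn, Tipin, Usp1, Exo1, Prim2, Pole and Rfc2. The search took the spellings TTTCCCGC, TTTCGCGC, TTTGCCGC and TTTGGCGC of the E2F consensus on both strands. At least 1 of them was present in 19 of the 53 windows (35.8%), against 4.55% of the 9579 windows of tested genes and 2.26% of all 32851 windows. Licensing windows held one in 8 of 16, fork windows in 9 of 27, checkpoint windows in 2 of 5 and nucleotide supply windows in 0 of 5. The CCAAT box bound by NF-Y was present in 58.5% of the windows of the replication genes and in 38.2% of those of tested genes. The CHR element (TTTGAA or TTCGAA), typical of G2 and M phase promoters, was present in 18.9%, against 14.1% of the windows of tested genes and 77.8% of the windows of a G2 and M phase list. By group it was in 7 of 16 licensing, 3 of 27 fork, 0 of 5 nucleotide supply and 0 of 5 checkpoint windows. A match of letters is a description of the window and not a measured binding site, and windows of 1 gene can overlap.

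6 stretches that lie before the start are printed to show what these matches look like in promoters of genes whose RNA is described below. Capitals mark an E2F spelling on either strand (GCGGGAAA, GCGCGAAA and GCGCCAAA are TTTCCCGC, TTTCGCGC and TTTGGCGC read on the other strand), and each line runs 5′ to 3′ on the strand of the gene.
Cdc6: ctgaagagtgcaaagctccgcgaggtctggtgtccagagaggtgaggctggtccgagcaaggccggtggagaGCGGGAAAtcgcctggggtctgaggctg
Orc1: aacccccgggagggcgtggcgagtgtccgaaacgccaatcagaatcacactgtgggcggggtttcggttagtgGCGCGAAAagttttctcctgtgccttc
Mcm6: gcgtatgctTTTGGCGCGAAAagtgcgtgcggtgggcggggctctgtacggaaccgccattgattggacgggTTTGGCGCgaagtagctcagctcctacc
Mcm7: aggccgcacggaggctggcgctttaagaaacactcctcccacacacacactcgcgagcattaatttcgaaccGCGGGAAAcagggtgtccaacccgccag
Pola1: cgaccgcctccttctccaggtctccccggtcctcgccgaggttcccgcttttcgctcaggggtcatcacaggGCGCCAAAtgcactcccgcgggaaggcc
Uhrf1: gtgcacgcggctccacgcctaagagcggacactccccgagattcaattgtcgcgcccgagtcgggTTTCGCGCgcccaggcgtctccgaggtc
In the order printed, they are chr11:98907941-98908040 (plus strand), chr4:108579354-108579453 (plus), chr1:128359725-128359824 (minus), chr5:138172021-138172120 (minus), chrX:93632266-93632365 (minus) and chr17:56304063-56304155 (plus). Mcm6 had 3 matches in its window, 2 of them overlapping, and the others shown had 1 each. The first match lay 138 bases before the start in Cdc6, 27 bases before it in Orc1 and 138 bases before it in Pola1.

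In the libraries, Dusp2 was read at 116 FPKM in WT CD44lo cells, at 82.6 and 83.9 FPKM in WT CD44hi cells and at 0 in Dusp2-/- CD44lo cells. In Dusp2-/- CD44hi cells it stood at 0 and 0.0283 FPKM (0 and 3 reads), so the titles hold for Dusp2. Cd44 was at 1.43 and 1.33 FPKM in the CD44lo libraries and between 65.3 and 79.9 FPKM in the CD44hi libraries. Cd8a ran from 246 to 358 FPKM and Cd4 did not exceed 0.0228 FPKM. The Dusp2-/- CD44lo library was the shallowest, with 23490008 reads recovered from the FPKM values, and the other depths lay between 42816073 and 55830235. Both Dusp2-/- CD44hi libraries stood apart in Xist, at 15.1 and 15.5 FPKM against at most 5 reads in each other library, while 4 Y-linked genes (Ddx3y, Eif2s3y, Kdm5d and Uty) were read in all 6. Eif2s3y was at 13.4 and 13.8 FPKM in these libraries and between 18.4 and 20.3 in the others. The labels give no sex, and in CD44hi a different mix of male and female animals cannot be told apart from the genotype. In Dusp2-/- cells, where Xist had 0 reads in CD44lo, such a mix cannot be told apart from the fraction either. The interaction carries the same limit. Cd79b, a gene of the B cell receptor, was at 6.92 FPKM in WT CD44lo, 11.2 in Dusp2-/- CD44lo, 12.2 and 9.88 in WT CD44hi and 22.4 and 24.6 in Dusp2-/- CD44hi, whereas its partner Cd79a did not exceed 0.379 FPKM. Summed markers were at most 0.801 FPKM for CD4 and regulatory T cells and 0.823 for NK cells. They were at most 5.62 FPKM for myeloid and dendritic cells and 0.358 FPKM for erythroid cells. Of the myeloid and dendritic genes, Flt3, Itgam, Adgre1 and Lyz2 did not exceed 0.134 FPKM. Cd68 lay between 2.55 and 4.11 FPKM in all 6 libraries. Itgax read 0.159 and 0.48 FPKM in the CD44lo libraries and from 1.2 to 1.67 FPKM in the CD44hi libraries. Of the 5 CD8 T cell markers tested, 3 fell and 2 did not pass the test in Dusp2-/- CD44hi cells. Mitochondrial transcripts took 2.56% of reads in WT CD44lo, 3.79% in Dusp2-/- CD44lo, 2.15% and 2.03% in WT CD44hi and 2.73% and 2.94% in Dusp2-/- CD44hi. Whether any of these differences between libraries has a part in the results on replication genes was not tested.

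As a share of the RNA, the replication genes were lowest in WT CD44lo, then higher in turn in Dusp2-/- CD44lo, WT CD44hi and Dusp2-/- CD44hi. Their reads made up 0.486% of the WT CD44lo library, 0.568% of the Dusp2-/- CD44lo library, 0.797% and 0.795% of the WT CD44hi libraries and 1.02% and 1.01% of the Dusp2-/- CD44hi libraries. Of the 56 genes, 42 followed exactly this order, with both libraries of a CD44hi group on the same side, as did 8.24% of all tested genes. In bulk RNA, fewer cells in S phase and less RNA per cell cannot be told apart. Mean levels over the 6 libraries ran from 2.81 FPKM (Fen1) to 156 FPKM (Mcm3), and no gene had under 86 reads in any library.

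**Figure D1:**
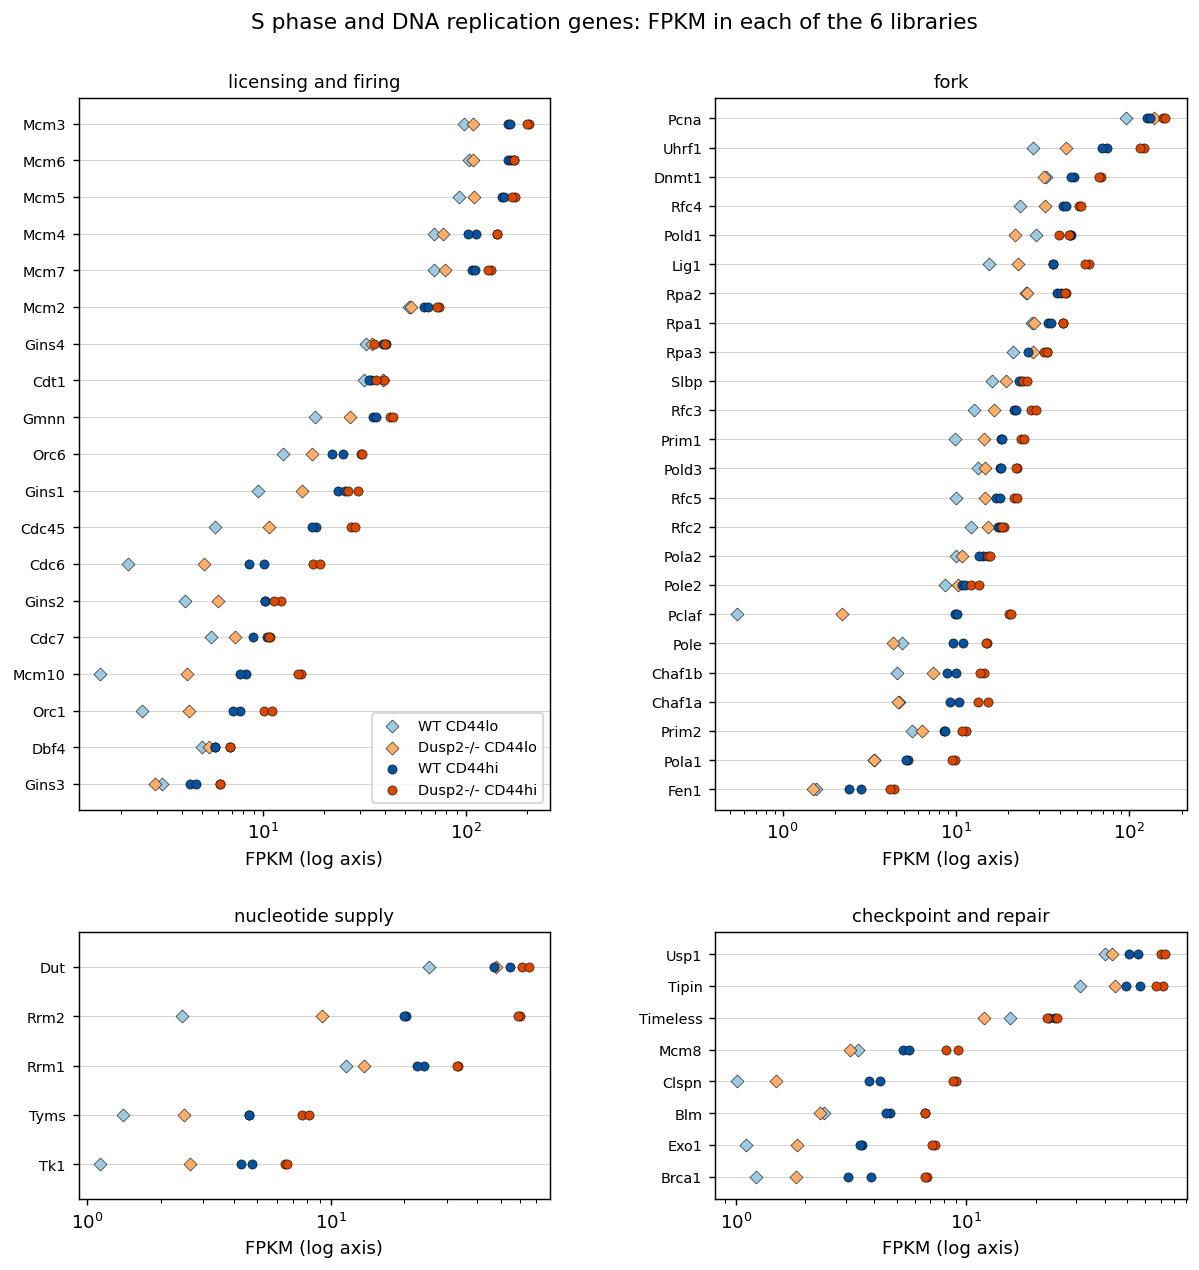
FPKM of each of the 56 genes (rows, sorted by level within the 4 groups) on a log axis, with 1 point for each of the 6 libraries: diamonds for CD44lo, circles for CD44hi, blue for WT and orange for Dusp2-/-. Most rows run from the WT CD44lo diamond on the left to the Dusp2-/- CD44hi circles on the right, 42 of them in that full order, and the widest rows are Pclaf and Rrm2.

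Dusp2-/- CD44hi cells carried more replication gene RNA than WT CD44hi cells. Steps are differences in log2(FPKM + 1), given with their standard error (SE), and called at an adjusted p under 0.05 in limma, a linear model across all genes, with Benjamini-Hochberg adjustment over the 9691 genes. Of the 56 genes, 39 rose, 0 fell and 17 did not pass, while 12.9% of all tested genes rose and 13.8% fell. The median step was 0.36 over the 56 genes and -0.018 over all tested genes. Licensing genes rose in 10 of 19 (median 0.25), fork genes in 17 of 24 (0.33), nucleotide supply genes in 5 of 5 (0.49) and checkpoint and repair genes in 7 of 8 (0.51). In 52 genes both Dusp2-/- libraries lay above both WT libraries, in 1 below and in 3 they overlapped, against 32% of all tested genes with both above. The 17 genes that did not pass included 13 of those 52. Without Dusp2-/- CD44hi replicate 1 or 2 the median step was 0.37 or 0.36. Fewer of the 56 genes and of all tested genes were then called, with the spread taken from the WT pair alone. With no filter on low values limma called 0 of the 56, with 44 at an unadjusted p under 0.05. Over all 18122 genes it then called 1 higher and 1 lower.

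Cdc6, Mcm10 and Cdc45 showed the largest licensing steps. Mcm10, which helps to start unwinding, was at 1.57 FPKM in WT CD44lo, 4.23 in Dusp2-/- CD44lo, 8.25 and 7.70 in WT CD44hi and 15.4 and 14.8 in Dusp2-/- CD44hi. Its level climbed through the 4 groups without overlap, and its CD44hi genotype step was 0.84 (SE 0.0758, limma adjusted p = 0.00163). Cdc6, the ATPase that loads MCM2-7 with Cdt1, read 2.16, 5.10, 10.1 and 8.56, and 17.5 and 19.1 FPKM in the same order of groups. Its step was 0.91 (SE 0.0957, limma adjusted p = 0.00257), and each Dusp2-/- library stood above the WT library of its fraction. Cdc45, a subunit of the active helicase, read 5.83, 10.7, 18.3 and 17.4, and 27.1 and 28.3 FPKM. It rose by 0.61 (SE 0.0667, limma adjusted p = 0.00277). Orc1, the subunit of the origin complex with the printed promoter, rose from 7.73 and 7.13 FPKM to 10.2 and 11.1 FPKM, and Orc6 from 21.8 and 24.6 to 30.6 and 30.8 FPKM.

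The MCM2-7 subunits, which were among the most abundant of the 56, had smaller steps. Mcm4 had the largest step of the 6, at 69.4 FPKM in WT CD44lo, 77.0 in Dusp2-/- CD44lo, 112 and 103 in WT CD44hi and 142 and 143 in Dusp2-/- CD44hi. The step was 0.41 (SE 0.0695, limma adjusted p = 0.0101) and lost its call without Dusp2-/- replicate 2 (limma adjusted p = 0.0564). Mcm3 (0.31) and Mcm7 (0.25) also rose, whereas Mcm2 (0.19, limma adjusted p = 0.0658), Mcm5 (0.17, 0.0964) and Mcm6 (0.07, 0.471) did not pass. Without WT CD44hi replicate 2, Mcm2 and Mcm5 passed (limma adjusted p = 0.0294 and 0.0438). The mean over the 6 subunits was 80.7 FPKM in WT CD44lo, 89.4 in Dusp2-/- CD44lo, 126 and 127 in WT CD44hi and 150 and 147 in Dusp2-/- CD44hi. The most abundant subunit was 1.98 times the least abundant in WT CD44lo and 2.77 and 2.79 times in Dusp2-/- CD44hi.

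Of the kinase and the licensing control, Gmnn (geminin, which binds and blocks Cdt1 in S phase) rose by 0.27 (SE 0.062, limma adjusted p = 0.0234). Cdt1 had a step of 0.16 (limma adjusted p = 0.135), Cdc7 of 0.14 (0.261) and Dbf4 of 0.21 (0.0744). Cdc7 passed without WT CD44hi replicate 1 (limma adjusted p = 0.0272). In the GINS complex Gins3 rose by 0.37, while Gins1 (0.18) and Gins2 (0.19) did not pass. Gins4 read 32.3 FPKM in WT CD44lo, 34.2 in Dusp2-/- CD44lo, 39.1 and 40.2 in WT CD44hi and 35.3 and 40.1 in Dusp2-/- CD44hi. Its genotypes overlapped in CD44hi (step -0.07, SE 0.0774, limma adjusted p = 0.508), and the sign turned without Dusp2-/- replicate 1 (0.02).

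At the fork, Pclaf, a small protein that binds PCNA, had the largest step. It read 0.543 FPKM in WT CD44lo, 2.21 in Dusp2-/- CD44lo, 9.90 and 10.2 in WT CD44hi and 20.3 and 20.8 in Dusp2-/- CD44hi. The CD44hi step was 0.97 (SE 0.0715, limma adjusted p = 0.000885), and in FPKM the Dusp2-/- mean was 2.05 times the WT mean. Pcna itself, the sliding clamp, rose by 0.30 (SE 0.066, limma adjusted p = 0.0212), from 126 and 132 to 157 and 161 FPKM. RefSeq lists 2 pseudogenes of Pcna and 1 of Tyms, whose reads the counting may have shared, so the levels of these genes are uncertain to that extent. Of the clamp loader subunits, Rfc3 (0.35), Rfc4 (0.29) and Rfc5 (0.32) rose and Rfc2 (0.08, limma adjusted p = 0.382) did not pass.

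Pola1, the catalytic subunit of the polymerase that primes synthesis, was at 3.36 and 3.38 FPKM in the WT and Dusp2-/- CD44lo libraries, 5.31 and 5.18 in WT CD44hi and 9.82 and 9.52 in Dusp2-/- CD44hi. The CD44lo libraries were level, and the CD44hi genotypes were far apart (step 0.77, SE 0.0748, limma adjusted p = 0.00194). Pola1 is the 1 gene of the 56 on chromosome X, and its step runs alongside the Xist difference of the same libraries, whose part in it was not tested. Its partners in that polymerase moved less, with 0.38 for Prim1 and 0.35 for Prim2, which both rose, and 0.14 for Pola2 (limma adjusted p = 0.175). Pole, which copies the leading strand, rose by 0.50 (SE 0.0826, limma adjusted p = 0.00886). Pold1, the catalytic subunit of the lagging strand polymerase, read 28.9 FPKM in WT CD44lo, 22.0 in Dusp2-/- CD44lo, 46.0 and 45.4 in WT CD44hi and 44.7 and 39.3 in Dusp2-/- CD44hi. It was the 1 gene with both Dusp2-/- CD44hi libraries below both WT libraries, but the step was -0.12 (SE 0.0771, limma adjusted p = 0.274). Pold3, an accessory subunit of the same polymerase, rose by 0.29.

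Rpa1, the largest subunit of the RPA complex that coats single-stranded DNA and the gene named in the treatment text, was present in every library. It read 27.4 FPKM in WT CD44lo, 28.2 in Dusp2-/- CD44lo, 33.7 and 35.2 in WT CD44hi and 41.3 and 41.4 in Dusp2-/- CD44hi. No library labelled Dusp2-/- had less Rpa1 than the WT libraries of its fraction, and in CD44hi it rose by 0.26 (SE 0.0606, limma adjusted p = 0.0258). That call was lost without Dusp2-/- replicate 1 or replicate 2. The step stayed at 0.257 and 0.254, and the spread was then taken from the WT pair alone. The table gives 1 value per gene, so reads from a floxed part of the gene cannot be told apart from the rest. Rpa2 (0.13, limma adjusted p = 0.177) and Rpa3 (0.15, 0.39) did not pass. Rpa3 rested on WT CD44hi replicate 1, which read 25.8 FPKM against 33.6 in replicate 2, with a step of -0.04 without replicate 1 and a call (limma adjusted p = 0.0115) without replicate 2.

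Lig1, which seals the pieces of the lagging strand, read 15.4 FPKM in WT CD44lo, 22.9 in Dusp2-/- CD44lo, 36.1 and 36.5 in WT CD44hi and 58.4 and 55.2 in Dusp2-/- CD44hi. The groups did not overlap, and the step was 0.63 (SE 0.0625, limma adjusted p = 0.00201). Fen1, the nuclease that trims those pieces, rose by 0.54 from a much lower level, 2.84 and 2.42 FPKM to 4.38 and 4.16 FPKM. Uhrf1, which reads newly copied DNA and brings in the maintenance methyltransferase Dnmt1, read 27.6, 43.2, 74.0 and 69.0, and 122 and 115 FPKM in the order of groups above. It rose by 0.72 (SE 0.0683, limma adjusted p = 0.00188) and Dnmt1 by 0.53 (SE 0.0611, limma adjusted p = 0.00349). The chromatin assembly subunits Chaf1a (0.50) and Chaf1b (0.53) both rose, and Slbp, which binds the ends of histone mRNAs, had a step of 0.09 (limma adjusted p = 0.335).

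All 5 nucleotide supply genes rose. Rrm2, the regulatory subunit of ribonucleotide reductase that is made in S phase, had the largest step of the 56. It read 2.44 FPKM in WT CD44lo, 9.25 in Dusp2-/- CD44lo, 20.5 and 19.9 in WT CD44hi and 59.9 and 58.9 in Dusp2-/- CD44hi. The CD44hi step was 1.51 (SE 0.0618, limma adjusted p = 0.00013), a ratio of means of 2.94 in FPKM. Rrm1, the catalytic subunit, read 11.5, 13.7, 24.2 and 22.7, and 33.5 and 33.2 FPKM in the same order and rose by 0.49 (SE 0.0647, limma adjusted p = 0.00474).

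Tyms, which makes thymidylate, read 1.40 FPKM in WT CD44lo, 2.50 in Dusp2-/- CD44lo, 4.59 and 4.61 in WT CD44hi and 7.60 and 8.15 in Dusp2-/- CD44hi. It rose by 0.66 (SE 0.0813, limma adjusted p = 0.00381). Tk1, the salvage kinase for thymidine, read 1.13, 2.65, 4.73 and 4.30, and 6.49 and 6.65 FPKM. Its step of 0.46 (SE 0.085, limma adjusted p = 0.0129) lost the call without Dusp2-/- replicate 1 (limma adjusted p = 0.0541) or 2 (0.0775). Dut, which removes dUTP, rose by 0.32 (SE 0.0871, limma adjusted p = 0.0391), the smallest step of the 5. Its call was lost without Dusp2-/- replicate 1 (limma adjusted p = 0.0651) or 2 (0.183) and with no variance trend (0.0599).

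Among checkpoint and repair genes, Clspn (claspin, which passes the stalled fork signal from the kinase ATR to Chk1) had the largest step. It read 1.01 FPKM in WT CD44lo, 1.49 in Dusp2-/- CD44lo, 4.21 and 3.78 in WT CD44hi and 9.04 and 8.77 in Dusp2-/- CD44hi. The step was 0.99 (SE 0.0869, limma adjusted p = 0.00154), with no overlap between genotypes in CD44hi. Timeless, which rides with claspin at the fork, did not differ detectably, at 24.3 and 22.9 against 24.9 and 22.4 FPKM (step 0.00, SE 0.0759, limma adjusted p = 0.996). Its partner Tipin rose by 0.37 (SE 0.0844, limma adjusted p = 0.0232).

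The repair genes of low level rose as well. Exo1, a nuclease that resects DNA ends, read 1.10 FPKM in WT CD44lo, 1.85 in Dusp2-/- CD44lo, 3.54 and 3.46 in WT CD44hi and 7.31 and 7.14 in Dusp2-/- CD44hi, a step of 0.87 (SE 0.0811, limma adjusted p = 0.00177). Brca1, which acts in repair by recombination, read 1.22, 1.83, 3.85 and 3.06, and 6.75 and 6.66 FPKM and rose by 0.80 (SE 0.107, limma adjusted p = 0.0049). Mcm8, a helicase of the same repair route, read 3.41 FPKM in WT CD44lo, 3.12 in Dusp2-/- CD44lo, 5.32 and 5.62 in WT CD44hi and 8.19 and 9.23 in Dusp2-/- CD44hi. Its Dusp2-/- value lay below WT in CD44lo and above WT in CD44hi, where it rose by 0.58 (SE 0.0873, limma adjusted p = 0.00646). Usp1, which takes ubiquitin off PCNA, rose by 0.42 and the helicase gene Blm by 0.44.

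Over all tested genes, the share that passed in each of the 4 fits leaving out 1 CD44hi library was not counted. Of the 56, some genes passed in all of these fits. They were Cdc6, Cdc45 and Mcm10 from licensing, Pclaf, Pola1, Pole, Lig1, Chaf1b, Uhrf1 and Dnmt1 from the fork, Rrm1, Rrm2 and Tyms from nucleotide supply, and Clspn, Usp1, Brca1, Exo1 and Mcm8 from checkpoint and repair. The other 21 called genes lost the call in at least 1 of these fits. Genes with a low level in WT CD44lo had the larger CD44hi genotype steps (across the 56 genes Pearson's r was -0.60 and Spearman's rho -0.61, a description in which the points share libraries). The 19 genes with an E2F spelling in a window had a median step of 0.37, with 14 called, and the 26 genes searched without one had a median of 0.35, with 18 called.

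**Figure D2:**
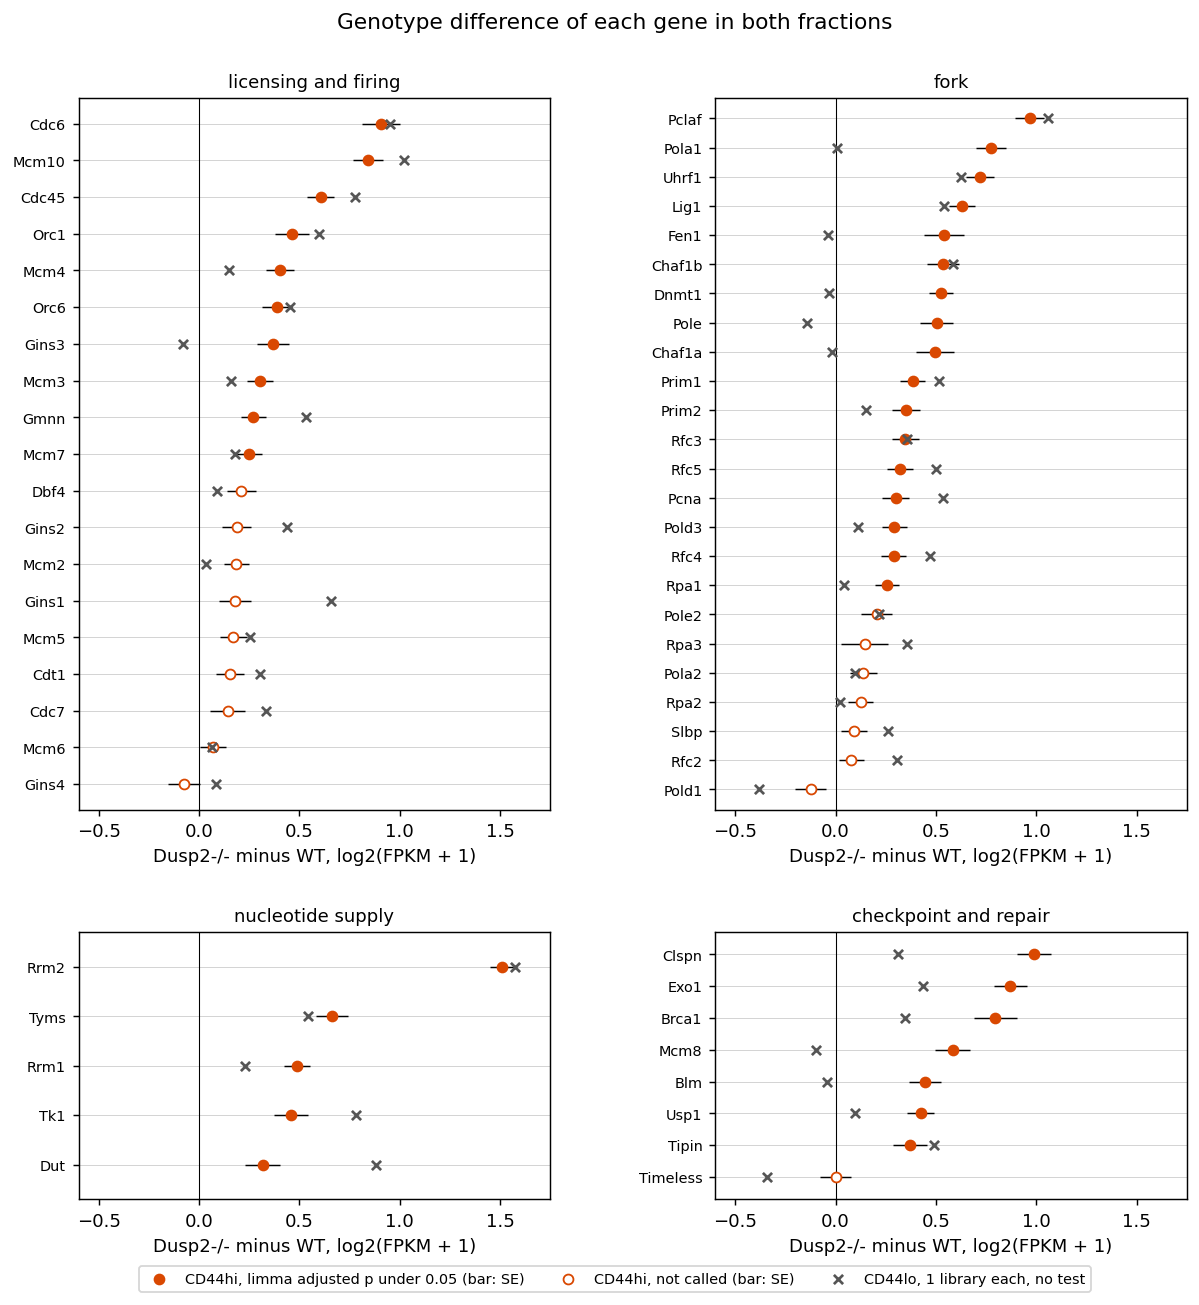
Dusp2-/- minus WT in log2(FPKM + 1) for each gene, by group and sorted by the CD44hi step. Circles are the CD44hi step with its SE bar (filled where the limma adjusted p was under 0.05), and crosses are the CD44lo difference from 1 library of each genotype with no test. Rrm2 lies farthest right at 1.51, Pold1 and Gins4 are the circles left of 0, and the crosses of Pola1, Dnmt1, Pole and Mcm8 sit near or below 0 while their circles are filled.

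In the CD44lo fraction 1 library of each genotype was sequenced. Its genotype difference has no replicate check and is described here without a test, although the fit that lends the CD44hi spread to the CD44lo libraries would have allowed one. Of the 56 genes, 47 were higher in the Dusp2-/- library and 9 were lower, where 48.4% of all tested genes were higher. At least 1.5-fold higher on the log2(FPKM + 1) scale were 11 genes and at least 1.5-fold lower 0, against 2.96% and 3.98% of all tested genes. The median difference was 0.31 over the 56 genes and -0.011 over all tested genes. Rrm2 (1.57), Pclaf (1.06), Mcm10 (1.02), Cdc6 (0.95), Dut (0.88), Tk1 (0.78) and Cdc45 (0.78) differed most. By group, 5 licensing, 3 fork, 3 nucleotide supply and 0 checkpoint genes were past 1.5-fold.

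The 9 genes that were lower in the Dusp2-/- CD44lo library were Pold1 (-0.38), Timeless (-0.34), Pole (-0.14), Mcm8 (-0.10), Gins3 (-0.08), Fen1 (-0.04), Blm (-0.04), Dnmt1 (-0.03) and Chaf1a (-0.02). CD44lo differences moved with gene length over all tested genes (Spearman's rho across genes -0.329), and CD44hi steps moved the other way (0.267). With a trend on length removed from every library, 49 of the 56 were higher and 7 lower in CD44lo, including 5 of these 9. With each library rescaled to the same FPKM total, 40 were higher and 16 lower, a scaling that moved the all-gene median to -0.11. Across the 56 genes the CD44lo difference and the CD44hi step, which share no library, had Pearson's r = 0.58 and Spearman's rho = 0.36, and across all 9691 tested genes 0.42 and 0.22.

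The comparison of fractions asks which genes differ between sorted cells with high and with low CD44. In both genotypes CD44hi cells had more replication gene RNA. In WT 51 of the 56 genes rose and 0 fell (median step 0.73), against 15.4% and 10.7% of all tested genes. In Dusp2-/- cells 52 rose and 0 fell (median 0.82), against 23.6% and 16.5%. The all-gene medians were 0.053 and 0.048. Each of these comparisons has 1 CD44lo library, whose spread was taken to be that of the CD44hi pairs. In Dusp2-/- the fractions also differed in Xist, and the part of that difference in the fraction steps was not tested.

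Pclaf had the largest fraction step in both genotypes, 2.84 in WT (SE 0.09, limma adjusted p = 3.33e-05) and 2.75 in Dusp2-/- (SE 0.09, limma adjusted p = 3.52e-05). Rrm2 followed with 2.62 and 2.56 (limma adjusted p = 3.04e-05 and 2.83e-05). Mcm10 (1.80 and 1.62), Cdc6 (1.71 and 1.66), Cdc45 (1.46 and 1.29) and Tk1 (1.37 and 1.05) also had large steps in both. The MCM2-7 subunits rose more modestly, from 0.28 (Mcm2) to 0.74 (Mcm3) in WT and from 0.43 (Mcm2) to 0.89 (Mcm3) in Dusp2-/-. Rpa1 rose by 0.32 in WT (limma adjusted p = 0.0223) and by 0.54 in Dusp2-/- (0.00249). The WT call of Rpa1 was lost with median-ratio scaling (limma adjusted p = 0.0557) and with no filter (0.0512). It was also lost without Dusp2-/- CD44hi replicate 1 or 2. There the WT step was unchanged at 0.32, since it holds no Dusp2-/- library, and only the estimate of spread differed.

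The genes that did not pass were few. Cdt1 passed in neither genotype, with steps of 0.10 in WT (limma adjusted p = 0.422) and -0.05 in Dusp2-/- (0.663), from levels of 31.4 and 39.0 FPKM in the CD44lo libraries and of 33.4 to 39.3 FPKM in the CD44hi libraries. Gins4 (0.29 and 0.13) and Rpa3 (0.45 and 0.24) also passed in neither. Dbf4 (0.18, limma adjusted p = 0.18) and Pole2 (0.32, 0.0504) did not pass in WT, and Pcna (0.20, 0.0929) did not pass in Dusp2-/-. By group, licensing genes rose in 16 of 19 in WT and 17 of 19 in Dusp2-/-, fork genes in 22 of 24 in each, and all nucleotide supply and checkpoint genes in each. Across the 56 genes the steps of the 2 genotypes, which share no library, had Pearson's r = 0.84 and Spearman's rho = 0.72, against 0.67 and 0.53 across all tested genes.

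**Figure D3:**
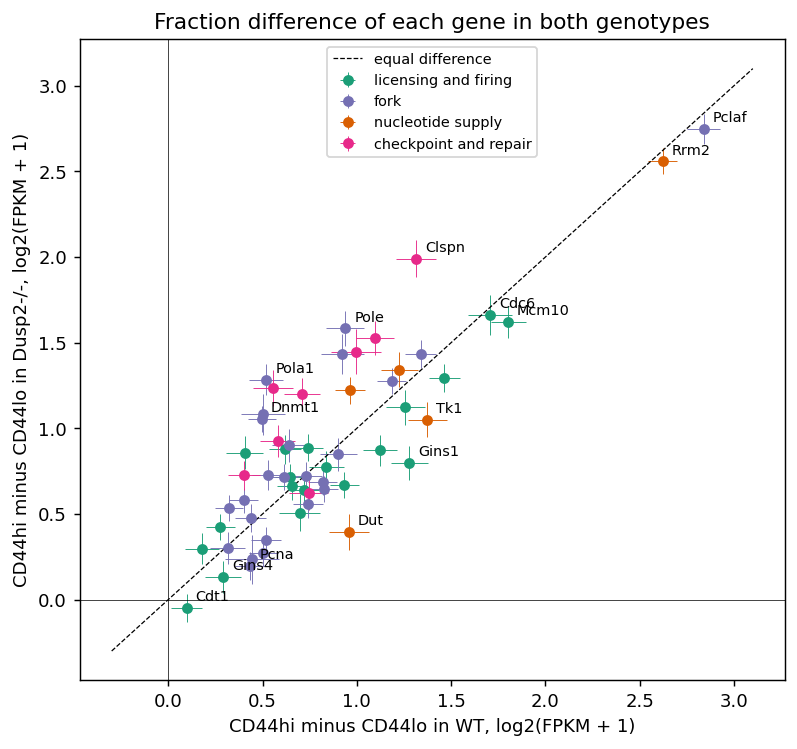
CD44hi minus CD44lo in log2(FPKM + 1) for each of the 56 genes, WT on the horizontal axis and Dusp2-/- on the vertical axis, with SE bars and colours for the 4 groups. The dashed line marks an equal step in both genotypes. Pclaf and Rrm2 lie at the upper right near the line, Clspn, Pole, Pola1 and Dnmt1 lie above it, Dut and Gins1 below it, and Cdt1 near the origin.

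Whether the genotype step differed between fractions was tested as an interaction. It passed for 2 of the 56 genes, both with a larger genotype step in CD44hi, against 2.73% of all tested genes higher and 1.49% lower. They were Pola1 (0.77, SE 0.13, limma adjusted p = 0.0397) and Dnmt1 (0.56, limma adjusted p = 0.0458). Pole (0.64), Clspn (0.68) and Mcm8 (0.68) came next at a limma adjusted p of 0.0564 each, and the median over the 56 genes was 0.02. In the opposite direction the most negative values were those of Dut (-0.56, limma adjusted p = 0.077) and Gins1 (-0.48, 0.0909), which did not pass. Pola1 and Dnmt1 lost the call without either Dusp2-/- CD44hi library, with no filter, with no variance trend and with the trend on gene length removed. In that last setting they stood at 0.56 (limma adjusted p = 0.0838) and 0.41 (0.0868), and both are longer (8950 and 7490 bases) than the median of 4310 bases over the 56 genes.

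In the fit over both fractions, with the fraction as a term, 24 of the 56 genes rose in Dusp2-/- and 0 fell (median 0.34), against 5.23% and 5.17% of all tested genes. All 5 nucleotide supply genes rose, led by Rrm2 (1.53, limma adjusted p = 5.65e-05), with 6 licensing, 9 fork and 4 checkpoint genes. The largest others were Pclaf (1.00, limma adjusted p = 0.000829), Cdc6 (0.92, 0.00174), Mcm10 (0.90, 0.0015) and Clspn (0.76, 0.0208). This fit shares the CD44hi libraries with the comparison above and is no second line of evidence. The count fell when 1 CD44hi library was left out, with medians over the 56 genes from 0.30 to 0.33. Without 1 CD44lo library the fraction term takes up the remaining one. The fit then reduces to the CD44hi comparison (median 0.36) and adds nothing to it.

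Between the CD44hi genotypes some partner genes kept their RNA in proportion and others did not. FPKM, being scaled to length, allows one to compare partners within a library. The ratios were chosen after the levels were seen and are given with no test. Pcna over Rfc4, the clamp over a subunit of its loader, was 4.08 in WT CD44lo, 4.23 in Dusp2-/- CD44lo, 3.07 and 3.06 in WT CD44hi and 3.09 and 3.06 in Dusp2-/- CD44hi, so it differed between fractions and overlapped between the CD44hi genotypes. Rrm2 over Rrm1 was 0.212 in WT CD44lo, 0.674 in Dusp2-/- CD44lo, 0.844 and 0.877 in WT CD44hi and 1.79 and 1.77 in Dusp2-/- CD44hi. That the ratio passed 1 rests on the lengths implied by the FPKM values, 11200 bases for Rrm1 and 2820 for Rrm2. In recovered reads Rrm1 exceeded Rrm2 in every library (20891 and 19356 against 9403 and 8631 in Dusp2-/- CD44hi). Only the change of the ratio between libraries is therefore read here. Clspn over Timeless was 0.0652, 0.125, 0.173 and 0.165, and 0.363 and 0.392. Uhrf1 over Dnmt1 was 0.840, 1.34, 1.55 and 1.5, and 1.77 and 1.73. Gmnn over Cdt1, the licensing inhibitor over its target, was 0.576 and 0.684 in the CD44lo libraries, 1.03 and 1.08 in WT CD44hi and 1.07 and 1.22 in Dusp2-/- CD44hi. In CD44hi the Rrm2, Clspn and Uhrf1 ratios separated the genotypes, whereas the genotypes overlapped for Gmnn over Cdt1. In CD44lo every ratio given here was higher in the Dusp2-/- library. With 1 library of each genotype there is no spread to set those differences against.

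**Figure D4:**
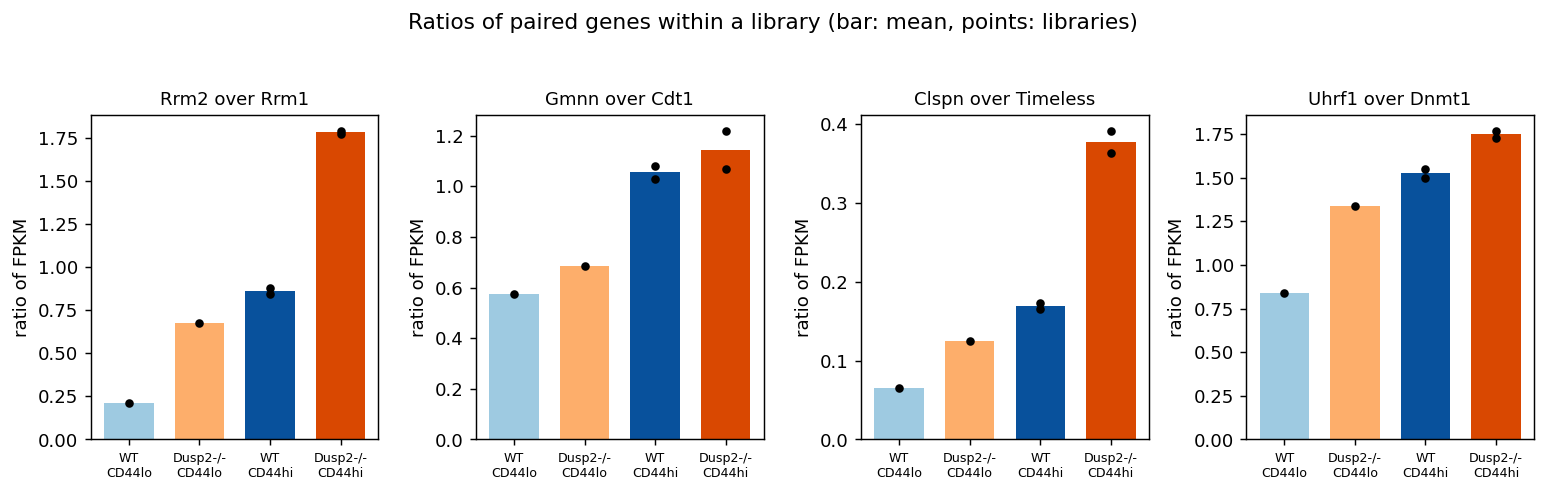
Ratio of the FPKM of 2 partner genes within each library, with bars for the group mean, points for libraries, and axes that start at 0. Rrm2 over Rrm1 stays under 1 in the CD44lo and WT CD44hi libraries and reaches 1.79 and 1.77 in Dusp2-/- CD44hi, and Gmnn over Cdt1 separates the fractions (0.576 and 0.684 against 1.03 to 1.22).

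Other genes of the same pathways, from lists that do not overlap the 56, were counted in the same way. Of 69 tested, 31 rose and 2 fell in Dusp2-/- CD44hi cells (median 0.22), with 5 of 12 licensing genes, 7 of 17 fork genes, 10 of 23 nucleotide genes and 9 of 17 checkpoint genes up. The difference in share from the 56 genes was not tested. Among them, the histone chaperone gene Supt16 rose by 0.79 (33.5 to 36.7 FPKM in WT and 60.2 to 62.7 in Dusp2-/-, limma adjusted p = 0.00154), the nuclease gene Dna2 by 1.01, the Brca1 partner Bard1 by 0.77 and Orc2 by 0.42. Of 15 genes for E2F and pocket proteins 5 rose and 1 fell, with 0.96 for E2f3, 0.71 for E2f8 and 0.67 for E2f2. The G2 and M phase list, which covers the phases after replication, had 15 of 21 genes up and 0 down (median 0.57). Its fraction medians were 1.55 in WT and 1.67 in Dusp2-/-, beside 0.73 and 0.82 for the replication genes, with 20 of 21 called in each. Mki67, a marker of cycling cells, read 0.351 FPKM in WT CD44lo, 0.491 in Dusp2-/- CD44lo, 5.66 and 3.84 in WT CD44hi and 13.7 and 13.3 in Dusp2-/- CD44hi (genotype step in CD44hi 1.35, limma adjusted p = 0.00282).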

How the data were processed

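The authors deposited 1 table of FPKM values (fragments scaled to gene length and depth) for 6 bulk RNA-seq libraries. The submitters' processing notes list HISAT2 2.0.5 as a tool and both hg38 and mm39 as builds, with no role for either. For the counter, the annotation and the strand setting, the sources used here give nothing. The labels' description also names 10X Genomics, but each library has 1 value per gene. Groups came from the sample titles, and 0 value columns were left unused. FPKM values were whole multiples of 1 read in all 16220 rows above 0 in 2 or more libraries (100% within 1e-06 reads, against 0 of 500 perturbed rows). Where only 1 library was above 0 (1902 rows), that value was set to 1 read. These recovered reads gave depths, read counts, shares of reads, gene lengths and an alternative test. The main test used the FPKM values.

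Differences were tested with limma 3.58.1 (R 4.3.3) after adding a pseudocount of 1 and taking log2, a scale that understates changes of low genes. The fit covered the 9691 genes whose mean reached 1 FPKM, with a variance trend, two-sided, and p-values were adjusted by Benjamini-Hochberg (0.05). Group coefficients left 2 residual degrees of freedom (the CD44hi replicates), and the additive model of genotype and fraction left 3. Tests were tried on simulated data first. Members, gene lists and tests were chosen with earlier results of these data known. Values in every library are given for the 4 smallest p-values in CD44hi per group, the 2 largest mean fraction steps per group, every negative genotype step and Rpa1. From the other lists, up to 3 genes with the smallest p may be named. Other members named, and the interaction genes, follow their results. Gene symbols (99.9% in the RefSeq table of GRCm38.p6) and promoter windows came from RefSeq. Alternatives tried were other pseudocounts (0.5 and 0.1), other filters (none, or a mean of 5 FPKM), other scalings (median-ratio, quantile, or a total of 1000000), no variance trend, robust variances, the CD44hi libraries alone, a replicate block, limma voom on recovered reads, each library left out and, chosen after seeing the data, removal of a loess trend on gene length (span 0.5).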

Additional observations from a re-analysis of the deposited data

Results flagged for a closer look

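For 2 of the 56 genes the genotype step differed between the CD44 fractions by the interaction test of limma, a share near that of all tested genes (2.73% higher and 1.49% lower). For Pola1 the CD44hi step exceeded the CD44lo difference by 0.77 (limma adjusted p = 0.0397), with 3.36 and 3.38 FPKM in the WT and Dusp2-/- CD44lo libraries. For Dnmt1 it did so by 0.56 (limma adjusted p = 0.0458), with 32.9 and 32.1 FPKM in the CD44lo libraries, 47.7 and 46.0 in WT CD44hi and 68.9 and 66.9 in Dusp2-/- CD44hi. Each rests on 1 CD44lo library per genotype. Over 16 alternatives each was called in 11, with values from 0.56 to 0.98 for Pola1 (limma adjusted p from 0.00395 to 0.11) and from 0.41 to 0.72 for Dnmt1 (0.0055 to 0.116).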

How the results depend on the processing

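Under the alternatives that kept all libraries the number of genes called in Dusp2-/- against WT in CD44hi was 31 to 41, with 1 exception. The 31 came at a minimum of 5 FPKM, where 48 of the 56 were tested. The exception was no filter on low values, where limma called 0 (44 at an unadjusted p under 0.05). In that fit it called 1 gene higher and 1 lower of all 18122. Leaving out 1 library gave 21 to 42 there, 49 to 53 for the fraction step in WT and 47 to 54 in Dusp2-/-, 8 to 39 with both fractions together, and 0 to 18 for the interaction. With both fractions together, no filter gave 11. The interaction count of 2 became 0 with no filter (18 at an unadjusted p under 0.05), 0 with no variance trend (14), 0 with the length trend removed (15), 4 at a minimum of 5 FPKM and 5 with median-ratio scaling. The fit with a replicate block called 39 in CD44hi, 52 and 50 for the fraction in WT and Dusp2-/-, 16 with both fractions together and 9 for the interaction (7 higher and 2 lower). Over all 9691 tested genes the block called 821 higher and 744 lower for the interaction, against 265 and 144 in the main fit. Median-ratio scaling called 415 and 190 there, and no filter 22 and 17 of 18122. The replicate numbers were not shown to pair libraries, since with 2 pairs the correlation of the differences between replicates was 0.0224 across genes. Voom on recovered reads called 40, 49, 48, 30 and 3 in the same order.

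Small steps changed sign. The Gins4 genotype step in CD44hi ranged from -0.165 to 0.0162 as libraries were left out (above 0 without Dusp2-/- CD44hi replicate 1) and was 0.027 with the length trend removed. With both fractions together it ranged from -0.0745 to 0.0453 (above 0 without WT CD44hi replicate 2, at 0.0042, or Dusp2-/- CD44hi replicate 1). Rpa3 in CD44hi ranged from -0.038 (without WT CD44hi replicate 1) to 0.328. Timeless in CD44hi ranged from -0.0726 to 0.0739 (below 0, at -0.0404 and -0.0726, without WT CD44hi replicate 2 or Dusp2-/- CD44hi replicate 1) and was -0.0384 with the length trend removed. With both fractions together it ranged from -0.189 to 0.0006 (without either CD44lo library). The Cdt1 fraction step in Dusp2-/- ranged from -0.112 to 0.0123 (without Dusp2-/- CD44hi replicate 2) and was 0.0869 with libraries rescaled and 0.0263 with the length trend removed. The cause was not tested.

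Rescaling each library to a total of 1000000 moved the all-gene median to 0.18 in the Dusp2-/- fraction step and to 0.13 in the interaction, where the medians of the 56 genes were 0.99 and 0.16. It also moved the split of all called genes, to 1292 higher and 914 lower in CD44hi (1248 and 1338 as deposited), to 3154 and 969 for the Dusp2-/- fraction step (2285 and 1603) and to 379 and 43 for the interaction (265 and 144). Median-ratio scaling gave 1253 and 1318 for the WT fraction step (1490 and 1037 as deposited). No test was run within CD44lo, and a fraction step has no value without its CD44lo library. With 2 libraries per CD44hi group, a step that missed the threshold does not show equal levels.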
